A study of Bos taurus with 15 samples.

Results

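Adipokines are proteins that adipose tissue releases into blood, and the genes described here encode leptin (LEP), its receptor (LEPR), both adiponectin receptors (ADIPOR1, ADIPOR2), resistin (RETN), visfatin (NAMPT), apelin (APLN), retinol-binding protein 4 (RBP4) and adipsin (CFD). They were chosen by gene symbol from a list of 10 adipokine and receptor genes. The name column of all 6 comparison tables held 9 of the 10, among 13896 genes in all. ADIPOQ, which encodes adiponectin, was not analysed here.

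RNA-Seq had been run on subcutaneous adipose tissue, taken from the dewlap under the neck of primiparous Prim Holstein cows, in 15 libraries that fell into 5 groups of 3. The first group was sampled 4 weeks before calving (-4 wkpp, weeks peripartum), before any experimental diet. The other groups had received either the LE (low energy) or the HE (high energy) diet from one month before calving and were sampled at 1 or 16 wkpp, in lactation. The methods describe the sequenced cows by their energy balance at 1 wkpp, severe negative (SNEB) or moderate negative (MNEB), and the labels by diet. The LE groups are called SNEB and the HE groups MNEB below, a match inferred from these descriptions. No genetic alteration or drug treatment was part of the design, all cows were in their first lactation, and the sequenced cows were picked from the extremes of a larger herd.

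Leptin is made mainly by adipocytes, in proportion to fat stores and energy intake, and acts on feeding and reproduction through LEPR, a cytokine receptor that signals through JAK2 and STAT3. Adiponectin acts through ADIPOR1 and ADIPOR2 on fatty acid oxidation and insulin action. Of the other members, CFD is the protease that starts the alternative complement pathway, RBP4 carries retinol in blood, and NAMPT makes NAD from nicotinamide. Apelin binds the receptor APLNR on blood vessels and elsewhere, and resistin is an adipokine linked to insulin resistance. Around calving, dairy cows mobilise subcutaneous fat to feed milk synthesis.

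The deposited tables give mean normalized counts over the groups compared, on exons and on the entire gene (exons and introns), and the reads of every library were recovered from these means. A normalized count is a gene's reads divided by the library's size factor, and values are not corrected for gene length, so levels were not compared between genes. Libraries carry the letters A, B and C within a group in the order of their size factor, highest first, because no library could be tied to a labelled sample. Exon reads ran from 7060365 to 12788351 per library at -4 wkpp and in the SNEB groups, from 1789420 to 6078922 in MNEB at 1 wkpp and from 2461822 to 6522999 in MNEB at 16 wkpp. Reads on the 92 spike-in RNAs made up 0.153 to 1.19% of a library at -4 wkpp and in SNEB, 2.42 to 16.5% in MNEB at 1 wkpp and 2.29 to 6.53% in MNEB at 16 wkpp. Whether this difference between libraries takes part in the MNEB results below was not tested. A gene was called differentially expressed (DEG) when limma gave a Benjamini-Hochberg adjusted p under 0.01 for exons and for the entire gene, with the same direction. Each group was of 3 cows, and biopsies of a cow at several weeks could not be matched between groups, so groups were fitted as independent.

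Leptin mRNA was highest before calving and lower in MNEB at 1 wkpp, by 14.5-fold in the limma fit, which weights the libraries. The plain group means were 1291 and 116 normalized exon counts. LEP was the only member that was a DEG in any comparison. At -4 wkpp the 3 libraries held 1479, 1013 and 1381 normalized exon counts of LEP. In SNEB at 1 wkpp they held 427, 630.3 and 423, and in MNEB at 1 wkpp 57.9, 118 and 171. No library of one of these groups overlapped with another group. At 16 wkpp, LEP was at 42.1, 8.68 and 13.2 normalized exon counts in SNEB and at 155, 36.4 and 48.5 in MNEB. The low values rested on few exon reads: 55, 44 and 48 in MNEB at 1 wkpp, 14 to 80 per library in SNEB at 16 wkpp and 14 to 157 in MNEB at 16 wkpp.

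The order of the group means for LEP exons was -4 wkpp (1291 ± 246, SD, n = 3), SNEB at 1 wkpp (493 ± 119), MNEB at 1 wkpp (116 ± 56.7), MNEB at 16 wkpp (79.8 ± 65.0) and SNEB at 16 wkpp (21.3 ± 18.2). The groups at -4 wkpp, SNEB at 1 wkpp and MNEB at 1 wkpp did not overlap with each other, MNEB at 1 and at 16 wkpp overlapped, and so did the last pair. Over the entire gene the means were 1359 ± 238, 532 ± 197, 184 ± 112, 111 ± 81.5 and 26.8 ± 24.2 in the same order, and there the last pair was apart. Reads outside exons made up 2.24 to 14.5% of the LEP reads in the 6 libraries at -4 wkpp and in SNEB at 1 wkpp, and 39.7 and 40.7% in MNEB libraries B and C at 1 wkpp.

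**Figure D1:**
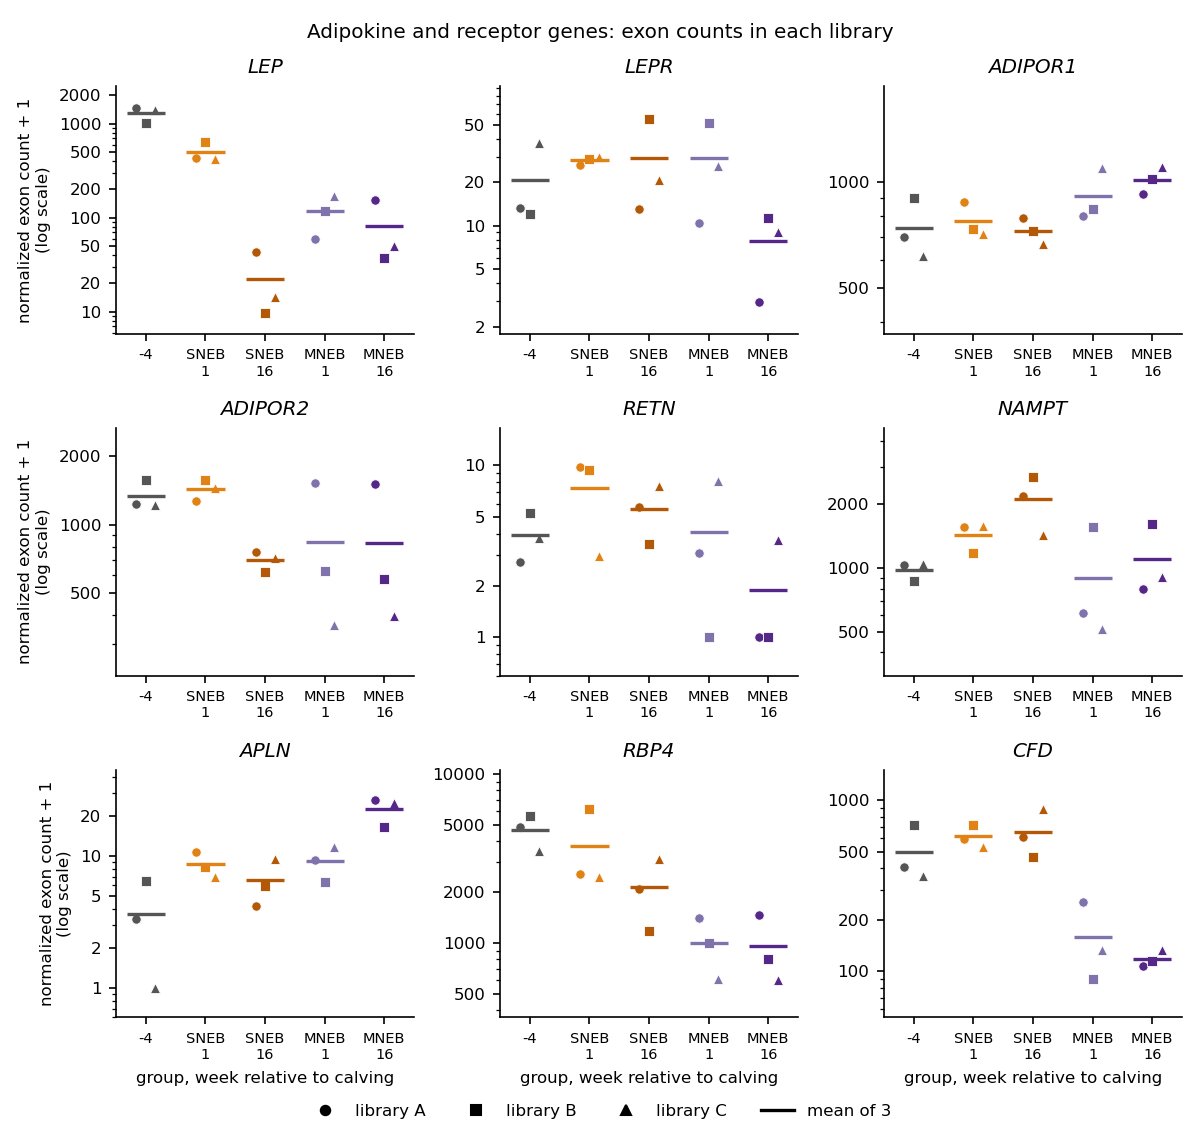
Normalized exon count plus 1 (log axis) of the 9 members in each of the 15 libraries, by group, with points lettered A, B and C by size factor and a bar at the group mean. LEP stood at 1013 or more in all 3 libraries at -4 wkpp and at 42.1 or less in all 3 SNEB libraries at 16 wkpp, and the 6 MNEB libraries held the 6 lowest CFD values.

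From -4 wkpp to MNEB at 1 wkpp, LEP was higher before calving by a log2 fold change of 3.85 (SE 0.37, 95% interval 3.03 to 4.68, adjusted p = 0.00015) on exons. On the entire gene the log2 fold change was 3.68 (SE 0.48, adjusted p = 0.009). LEP was thus 1 of 7 members tested that passed, where 1.77% of all 10353 genes tested passed, 1.02% with the higher level at -4 wkpp. At an unadjusted p under 0.05 in both analyses, LEP and RBP4 passed, where 25.3% of all genes did. The call of LEP was lost without any 1 of the 6 libraries. The exon adjusted p was then 0.00033 to 0.001 and that of the entire gene 0.011 to 0.06. Of all genes, 183 were called with all 6 libraries, 199 without MNEB library A and 1 to 15 without any other 1. Without MNEB library A at 1 wkpp the exon log2 fold change of LEP was 3.18. The call was also lost with no filter on low counts (entire gene adjusted p = 0.012) and with limma-trend at pseudocounts of 1 and 10 (0.013 and 0.012). One fit of all 15 libraries gave 3.86 (adjusted p = 2.6e-05, entire gene 0.00051), and the same kind of fit without MNEB libraries B and C, the shallowest 4 libraries of all, gave 4.45 (adjusted p = 0.0038, entire gene 0.017). The latter fit of 11 libraries left 1 MNEB library per week, which was assumed to vary like the libraries of the other groups.

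In the other comparisons LEP missed the threshold in at least one analysis. Between -4 wkpp and SNEB at 1 wkpp the exon log2 fold change was 1.39 (SE 0.22, adjusted p = 0.022, entire gene 0.085), with the -4 wkpp libraries higher. From 1 to 16 wkpp in SNEB, LEP had the smallest p of the 10564 genes tested on exons, with a log2 fold change of 4.75 (SE 0.52, a 27.0-fold difference), or 5.46 without SNEB library A at 16 wkpp. Its adjusted p was nevertheless 0.15 on exons and 0.73 on the entire gene. It was 0.0039 and 0.43 in the fit of all 15 libraries, and 0.036 and 0.041 without SNEB library B at 1 wkpp, so LEP was not called in these either. From 1 to 16 wkpp in MNEB the log2 fold change was 0.13 (SE 0.60, 95% interval -1.22 to 1.47, adjusted p = 0.94), and on the entire gene -0.32. The exon value was between -1.41 (the fit of 11 libraries) and 1.10 (without MNEB library A at 16 wkpp), with the other sign in 5 of 13 alternatives.

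Between diets, the exon value of LEP was higher in SNEB at 1 wkpp and lower in SNEB at 16 wkpp. At 1 wkpp the exon log2 fold change of SNEB over MNEB was 2.47 (SE 0.40, adjusted p = 0.0099, entire gene 0.10), and 1.78 without MNEB library A. At 16 wkpp it was -2.23 (SE 0.71, adjusted p = 0.048, entire gene 0.062), and was -1.27 without MNEB library A and -2.95 without SNEB library A of that week. The difference between the 1 to 16 wkpp changes of SNEB and MNEB was itself tested: it was 4.70 on the log2 scale (SE 0.86, 95% interval 2.85 to 6.55) and ranked 2 of 10389 genes by exon p. It was 4.00 and 3.72 without MNEB library A at 1 and at 16 wkpp, 5.42 without SNEB library A at 16 wkpp, 6.17 in the fit of 11 libraries and 3.52 with limma-trend at a pseudocount of 10. Its adjusted p was 0.48 on exons and 0.62 on the entire gene, and 0% of all genes passed that test.

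**Figure D2:**
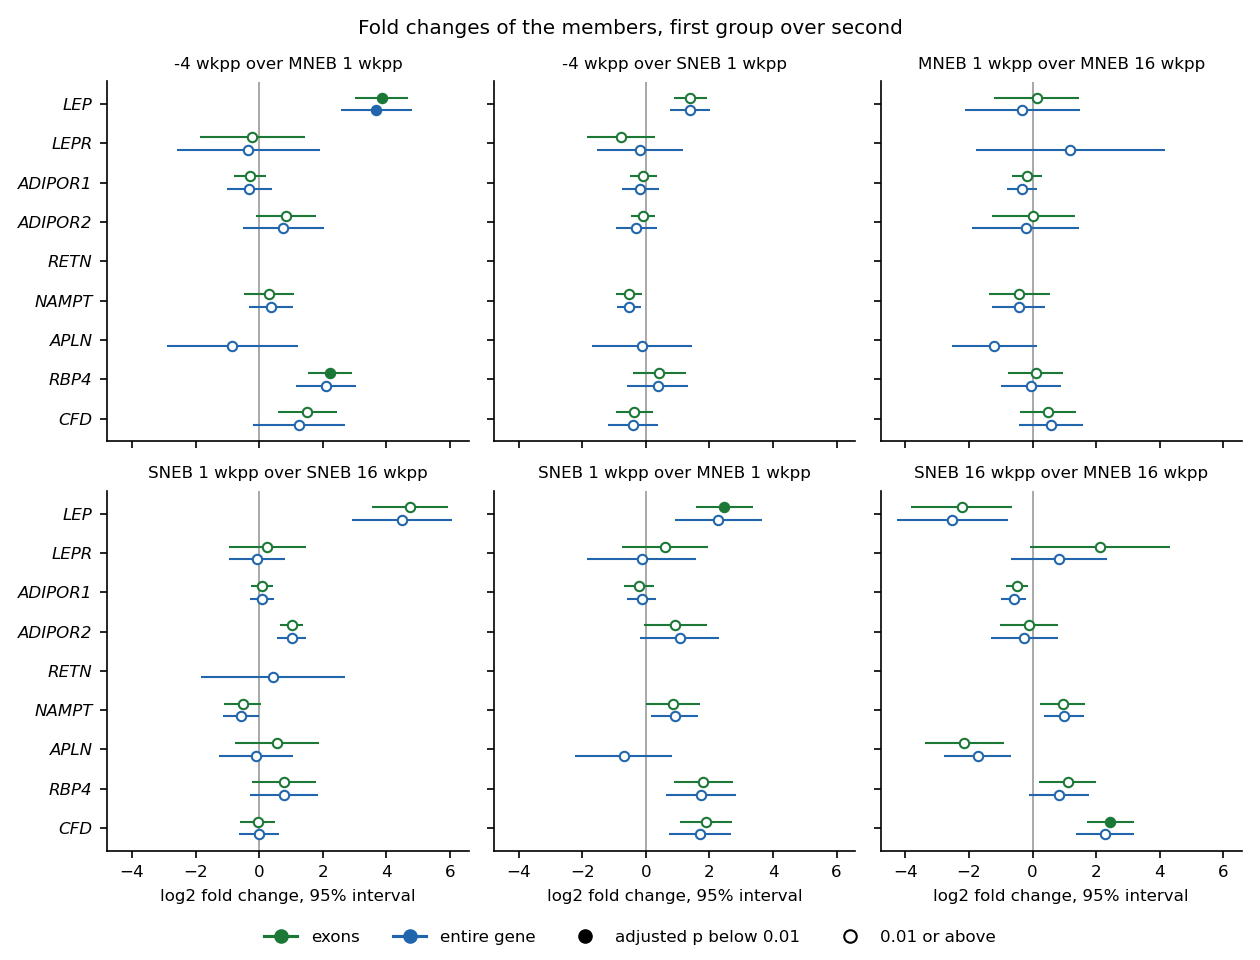
Log2 fold change with its 95% interval for each member in the 6 comparisons, first group over second, on exons (green) and on the entire gene (blue), filled where the adjusted p was under 0.01. LEP between -4 wkpp and MNEB at 1 wkpp, at 3.85 on exons and 3.68 on the entire gene, was filled in both analyses, and no other member was.

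The leptin receptor was barely covered, with 2 to 87 exon reads of LEPR per library. Normalized exon counts were 12.3, 11.1 and 36.3 at -4 wkpp, 25.6, 28.0 and 28.9 in SNEB at 1 wkpp and 12.1, 53.9 and 19.7 in SNEB at 16 wkpp. MNEB libraries held 9.47 to 51.1 at 1 wkpp and 1.97, 10.4 and 8.08 at 16 wkpp. The groups overlapped, apart from MNEB at 16 wkpp, whose 3 libraries were below all libraries of the other groups except MNEB library A at 1 wkpp. Most LEPR reads lay outside exons, 62.5 to 97.1% in each library, against 40.2 to 60.1% over all genes. Over the entire gene the group means were 149 ± 129 at -4 wkpp, 122 ± 19.3 and 142 ± 75.8 in SNEB, and 319 ± 226 and 85.6 ± 68.9 in MNEB at 1 and 16 wkpp, and all of them overlapped with their neighbours. The widest exon difference, SNEB over MNEB at 16 wkpp, had a log2 fold change of 2.12 (SE 0.97, 95% interval -0.08 to 4.32, adjusted p = 0.14). It was 1.13 without MNEB library A, 1.05 with a limma-trend fit at a pseudocount of 10 and 3.24 in the fit of 11 libraries. In mammals LEPR overlaps LEPROT, and how reads in the shared stretch were assigned was not tested.

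The group means of ADIPOR1 lay within a narrow range, 727 to 1014 normalized exon counts. They were 737 ± 145 at -4 wkpp, 774 ± 90.5 and 727 ± 60.1 in SNEB at 1 and 16 wkpp, and 909.7 ± 159 and 1014 ± 89.3 in MNEB at 1 and 16 wkpp. At 16 wkpp the SNEB libraries held 787, 727 and 666 and the MNEB libraries 923, 1016 and 1102, without overlap. The log2 fold change of SNEB over MNEB there was -0.48 (SE 0.15, adjusted p = 0.049, entire gene 0.059). In the other 5 comparisons the exon log2 fold changes of ADIPOR1 were between -0.30 and 0.08, with adjusted p of 0.35 or more.

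ADIPOR2 was more uneven. At -4 wkpp it had 1230, 1563 and 1219 normalized exon counts, and in SNEB 1269, 1564 and 1445 at 1 wkpp and 759, 616 and 714 at 16 wkpp. The SNEB groups did not overlap, with a log2 fold change of 1.03 (SE 0.15) from 1 over 16 wkpp that ranked 6 of 10564 genes by exon p. The adjusted p was 0.24 on exons and 0.73 on the entire gene. In MNEB the counts were 1524, 624 and 360.4 at 1 wkpp and 1505, 574 and 396 at 16 wkpp, so library A of each week stood at the level of the early groups and B and C well below it. Library A was also the deepest of its group. In the fit of all 15 libraries the log2 fold change of SNEB over MNEB was 0.89 at 1 wkpp and -0.10 at 16 wkpp, and that of -4 wkpp over MNEB was 0.79. In the fit of 11 libraries, where library A stood alone for MNEB at each week, these values were -0.10, -1.12 and -0.20. Without library A of 1 wkpp, the comparisons with MNEB at 1 wkpp gave 1.55 for SNEB and 1.46 for -4 wkpp, and without library A of 16 wkpp SNEB over MNEB gave 0.53.

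RBP4 was highest before calving and lowest in MNEB. Its normalized exon counts were 4866, 5630 and 3486 at -4 wkpp, 2548, 6234 and 2470 in SNEB at 1 wkpp, and 2078, 1181 and 3131 in SNEB at 16 wkpp. In MNEB they were 1405, 996 and 607 at 1 wkpp and 1464, 803 and 603 at 16 wkpp. Both MNEB groups lay below every library at -4 wkpp and in SNEB at 1 wkpp, while neighbours in the order of the 5 means overlapped throughout. The log2 fold change of -4 wkpp over MNEB at 1 wkpp was 2.24 (SE 0.31, a 4.71-fold difference, adjusted p = 0.00081 on exons and 0.024 on the entire gene). SNEB over MNEB gave 1.81 (SE 0.41, adjusted p = 0.022, entire gene 0.12) at 1 wkpp and 1.10 (SE 0.40, adjusted p = 0.074, entire gene 0.22) at 16 wkpp. Over all alternatives, -4 wkpp over MNEB at 1 wkpp gave 1.69 (the fit of 11 libraries) to 2.54 on exons. SNEB over MNEB then gave 1.27 to 2.11 at 1 wkpp and 0.43 to 1.49 at 16 wkpp. From 1 to 16 wkpp, the log2 fold change was 0.77 (SE 0.44) in SNEB and 0.10 (SE 0.39) in MNEB, with adjusted p of 0.70 and 0.93.

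CFD was lower in every MNEB library than in any other library. At -4 wkpp its normalized exon counts were 407, 717 and 360.1, and in SNEB they were 596, 719 and 530.4 at 1 wkpp and 609.5, 464 and 886 at 16 wkpp. In MNEB they were 253, 88.8 and 132 at 1 wkpp and 106, 114 and 132 at 16 wkpp. All 6 MNEB values were below all 9 others, and they rested on 33 to 240 reads. How many of all genes showed this split was not counted. Exon counts did not overlap in 46.9% of all genes between -4 wkpp and MNEB at 1 wkpp. Between diets they did not overlap in 39.7% at 1 wkpp and 44.0% at 16 wkpp. At 16 wkpp the log2 fold change of SNEB over MNEB was 2.45 (SE 0.32, a 5.48-fold difference, adjusted p = 0.0014), and on the entire gene the adjusted p was 0.011, just over the threshold. At 1 wkpp the log2 fold change was 1.88 (SE 0.36, adjusted p = 0.013, entire gene 0.096), 2.51 without MNEB library A, where CFD was called, and 1.27 in the fit of 11 libraries (adjusted p = 0.13). Before calving over MNEB at 1 wkpp it was 1.52 (SE 0.42, adjusted p = 0.021, entire gene 0.26), 2.15 without that library and 0.91 in the fit of 11 libraries. CFD reads lay almost wholly on exons, with at most 5.71% outside in any library, so the same reads stood behind both analyses of this gene.

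NAMPT was at 1036, 873 and 1040 normalized exon counts at -4 wkpp. In SNEB the libraries held 1557, 1173 and 1587 at 1 wkpp and 2198, 2701 and 1425 at 16 wkpp. These SNEB values were all above those at -4 wkpp. In MNEB the values were 612, 1561 and 517 at 1 wkpp and 799, 1610 and 910.5 at 16 wkpp, with library B high at each week. The log2 fold change of -4 wkpp over SNEB at 1 wkpp was -0.54 (SE 0.18, adjusted p = 0.20), and that of SNEB over MNEB was 0.86 (SE 0.37, adjusted p = 0.15) at 1 wkpp and 0.95 (SE 0.31, adjusted p = 0.055, entire gene 0.049) at 16 wkpp. Of the NAMPT reads, 25.6 to 58.9% fell outside exons in each library, the lowest shares being 25.6% in MNEB library B at 1 wkpp and 33.9 and 35.2% in MNEB libraries B and C at 16 wkpp.

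APLN had 0 to 26 exon reads per library and was testable on exons in only 2 of the 6 comparisons and in the test of the diet difference. Its normalized exon counts were 25.6, 15.6 and 24.2 in MNEB at 16 wkpp, against a highest value of 10.7 in the other 12 libraries. Entire gene counts gave the same split, 42.4 to 76.1 against at most 38.8. The log2 fold change of SNEB over MNEB at 16 wkpp was -2.14 (SE 0.55, adjusted p = 0.023) on exons and -1.72 (SE 0.46, adjusted p = 0.043) on the entire gene. With 6, 9 and 26 exon reads in the MNEB libraries, this difference was measured at low depth, and it lay closer to 0 with a limma-trend fit at a pseudocount of 10 (adjusted p = 0.043), by over 1.5 times as a fold. RETN had 0 to 16 exon reads per library and a group mean of at most 6.37 normalized counts, in SNEB at 1 wkpp, and was not tested on exons. It had no read in MNEB library B at 1 wkpp and in libraries A and B at 16 wkpp, and a count of 0 allows up to 3 reads, by counting error only.

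The members' calls in the remaining tests were set beside the shares over all genes. Between -4 wkpp and SNEB at 1 wkpp, limma called 0 of 7 members, where 0.0380% of all genes were called, and LEP and NAMPT had an unadjusted p under 0.05 in both analyses, against 9.53% of all genes. From 1 to 16 wkpp, 0 of 8 members were called in SNEB and 0 of 6 in MNEB, and 0% of all genes were called in either. In SNEB 2 members (LEP and ADIPOR2) and in MNEB 0 had an unadjusted p under 0.05 in both analyses, against 4.48% and 8.06% of all genes. Between diets, limma called 0 of 7 members at 1 wkpp, where 0% of all genes were called, and 4 members (LEP, NAMPT, RBP4 and CFD) had an unadjusted p under 0.05 in both analyses, against 18.4% of all genes. At 16 wkpp it called 0 of 8, where 3.62% of all genes were called, and 5 members (LEP, ADIPOR1, NAMPT, APLN and CFD) had an unadjusted p under 0.05 in both, against 26.2% of all genes. In the test of the diet difference, 0 of 8 were called and LEP alone had an unadjusted p under 0.05 in both, against 2.80% of all genes. A limma-trend fit of log2 counts also called 0 members in these tests, except CFD at 16 wkpp between diets.

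Non-overlap of the exon counts was common among all genes in the comparisons with MNEB. Between -4 wkpp and MNEB at 1 wkpp, 3 of 7 members were higher in every -4 wkpp library (LEP, RBP4 and CFD) and 46.9% of all genes did not overlap. Between diets at 1 wkpp the same 3 members were apart, higher in SNEB, against 39.7% of all genes. At 16 wkpp, 2 of 8 members were higher in every SNEB library (LEPR and CFD) and 2 were lower (ADIPOR1 and APLN), against 44.0% of all genes. From -4 wkpp to SNEB at 1 wkpp, LEP was apart and higher and NAMPT apart and lower, against 19.6% of all genes. From 1 to 16 wkpp, LEP and ADIPOR2 were apart in SNEB, against 11.8%, and none of 6 members in MNEB, against 20.2%. The median log2 fold change of the members tested was 0.83 for -4 wkpp over MNEB at 1 wkpp, 0.92 for SNEB over MNEB at 1 wkpp and 0.42 at 16 wkpp, where the medians of all genes were 0.05, 0.07 and 0.04. It was -0.10 for -4 wkpp over SNEB at 1 wkpp, 0.07 for MNEB at 1 over 16 wkpp and 0.40 for SNEB at 1 over 16 wkpp, where those of all genes were -0.03, -0.01 and -0.01. The comparisons share groups, so these values are not independent of each other.

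The genes around the members were described from lists of their pathways. Of 15 genes for leptin receptor partners and signalling, 10 were found and tested, and limma called none in any comparison. At an adjusted p under 0.05 in both analyses, SH2B1, an adaptor of JAK2, was lower at -4 wkpp than in MNEB at 1 wkpp, and SH2B1 and SOCS3, the feedback inhibitor of leptin signalling, were lower in SNEB than in MNEB at 16 wkpp. Of 17 genes for adiponectin assembly, binding and signalling, 13 were found and tested and none was called either, and at 0.05 only APPL2, an adaptor related to the adiponectin receptor partner APPL1, passed, higher in SNEB at 16 wkpp. At that threshold, 10.2% of all genes passed between -4 wkpp and MNEB at 1 wkpp and 13.2% between diets at 16 wkpp.

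Among the receptors and partners of the other members, 19 of 21 genes were found. C3, the central protein of the complement system in which CFD acts, fell from 2764 ± 627 normalized exon counts at -4 wkpp to 502 ± 138 in MNEB at 1 wkpp (log2 fold change 2.43, SE 0.27, adjusted p = 0.00026), the 1 called gene of 17 tested, where 1.77% of all genes were called. At 16 wkpp, 2 of 16 were higher in SNEB than in MNEB and 1 was lower, where 3.62% of all genes were called. The higher genes were C3 (log2 fold change 2.83, SE 0.32, adjusted p = 0.00097) and TLR4, a lipopolysaccharide receptor that also binds resistin (1.61, SE 0.21, adjusted p = 0.0014). The lower gene was NAPRT, which makes NAD from nicotinic acid (-1.05, SE 0.17, adjusted p = 0.0035). The list's median was 0.56 and 0.65 in these comparisons, against 0.05 and 0.04 for all genes. In the other 4 comparisons, and in the test of the diet difference, none was called.

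**Figure D3:**
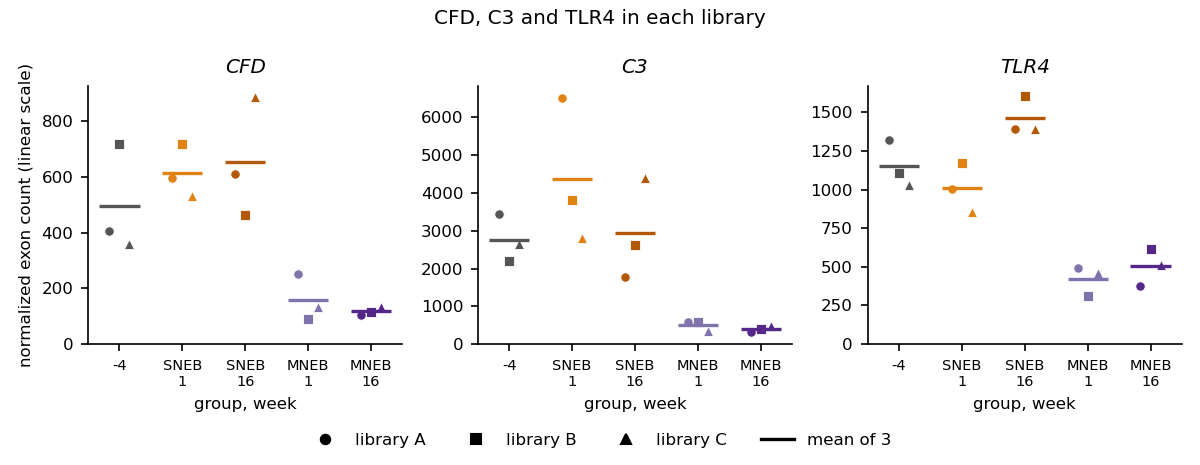
Normalized exon counts of CFD, C3 and TLR4 in each library, by group, with a bar at the group mean. The 6 MNEB libraries stood below the other 9 for CFD (253 or less against 360.1 or more) and for C3 (587 or less against 1773 or more). How many of all genes showed this split was not counted.

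Of 32 other secreted adipokines, 24 were found and 17 to 19 tested. FSTL1, which encodes a secreted follistatin-like glycoprotein, was the only one called, 1 of 18 tested between -4 wkpp and MNEB at 1 wkpp (1.77% of all genes) and 1 of 17 between diets at 16 wkpp (3.62%). It had 30742 ± 4713 normalized exon counts at -4 wkpp and 3788 ± 241 in MNEB at 1 wkpp (log2 fold change 3.01, SE 0.20, adjusted p = 2.5e-05). It was also higher in SNEB than in MNEB at 16 wkpp (log2 fold change 2.14, SE 0.28, adjusted p = 0.0014). The medians of this list were 1.10 and 1.01 in these comparisons, against 0.05 and 0.04 for all genes.

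The 3 genes whose exon counts followed LEP most closely over the 15 libraries, of 7963 genes with a mean of at least 100, were ARHGEF37 (Pearson r = 0.898), FGF1 (r = 0.859) and MCAM (r = 0.848). The libraries share their groups, so r is a description. FGF1, a fibroblast growth factor made by adipocytes, had a mean of 1521 normalized exon counts at -4 wkpp, 369.8 and 106 in SNEB at 1 and 16 wkpp, and 171 and 216 in MNEB at 1 and 16 wkpp.

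Markers of adipocytes were present in every library. Their summed normalized exon count over 10 of 12 genes found was 54814 to 61788 at -4 wkpp, 40428 to 43697 and 25728 to 33746 in SNEB at 1 and 16 wkpp, and 18147 to 26716 and 9926 to 31265 in MNEB at 1 and 16 wkpp. LPL, CIDEA, AQP7, CIDEC and GPD1 were DEG between -4 wkpp and MNEB at 1 wkpp, as LEP was, 5 of 9 tested where 1.77% of all genes were called. CIDEA was a DEG between -4 wkpp and SNEB at 1 wkpp, 1 of 9 tested where 0.0380% were called. In pieces of tissue, fewer adipocytes and less LEP, RBP4 or CFD mRNA per adipocyte cannot be told apart.

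Markers of other cells differed between the groups as well. The summed count of 4 of 8 fibroblast and preadipocyte genes was 27803 to 34472 at -4 wkpp, 16883 to 25399 and 31100 to 39819 in SNEB at 1 and 16 wkpp, and 9168 to 11910 and 13138 to 17710 in MNEB at 1 and 16 wkpp. PDGFRA and THY1 of this list were DEG between -4 wkpp and MNEB at 1 wkpp, as LEP, C3 and FSTL1 were, 2 of 4 tested where 1.77% of all genes were called. At 16 wkpp, where 3.62% of all genes were called between diets, THY1 was 1 of 4. Of 9 skeletal muscle genes, TNNT3 (a fast troponin T) made up most of the sum in MNEB, with 1181 to 3825 normalized exon counts in the 6 MNEB libraries and 54.9 to 340.3 in the other 9, and it was a DEG, higher in MNEB, at 16 wkpp, the 1 gene of the list tested there. CKM, TNNC2, MYLPF and MB of the same list stayed under a mean of 10 in every group. MYLPF was at 0 at -4 wkpp and in MNEB at 16 wkpp. ACTA1, MYH1 and MYH2 reached a mean of 10 in MNEB at 1 wkpp, and ACTA1 also in MNEB at 16 wkpp. They were under 10 at -4 wkpp and in SNEB. MYH7 reached 10 in MNEB at 1 wkpp and at -4 wkpp. The 4 genes tested between diets at 1 wkpp had a median log2 fold change of -2.81, SNEB over MNEB. That of all genes was 0.07, and 0 of the list were called. The summed count of 6 of 8 macrophage genes was 11060 to 14502 in SNEB and 2101 to 2405 in MNEB at 16 wkpp, where CD163 and CSF1R were DEG, 2 of 6 tested, as C3 and TLR4 were, and so was PTPRC of the lymphocyte list, 1 of 6 tested. The part of these cells, and of the lower depth of the MNEB libraries, in the values of LEP, RBP4, CFD and APLN in MNEB was not tested.

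**Figure D4:**
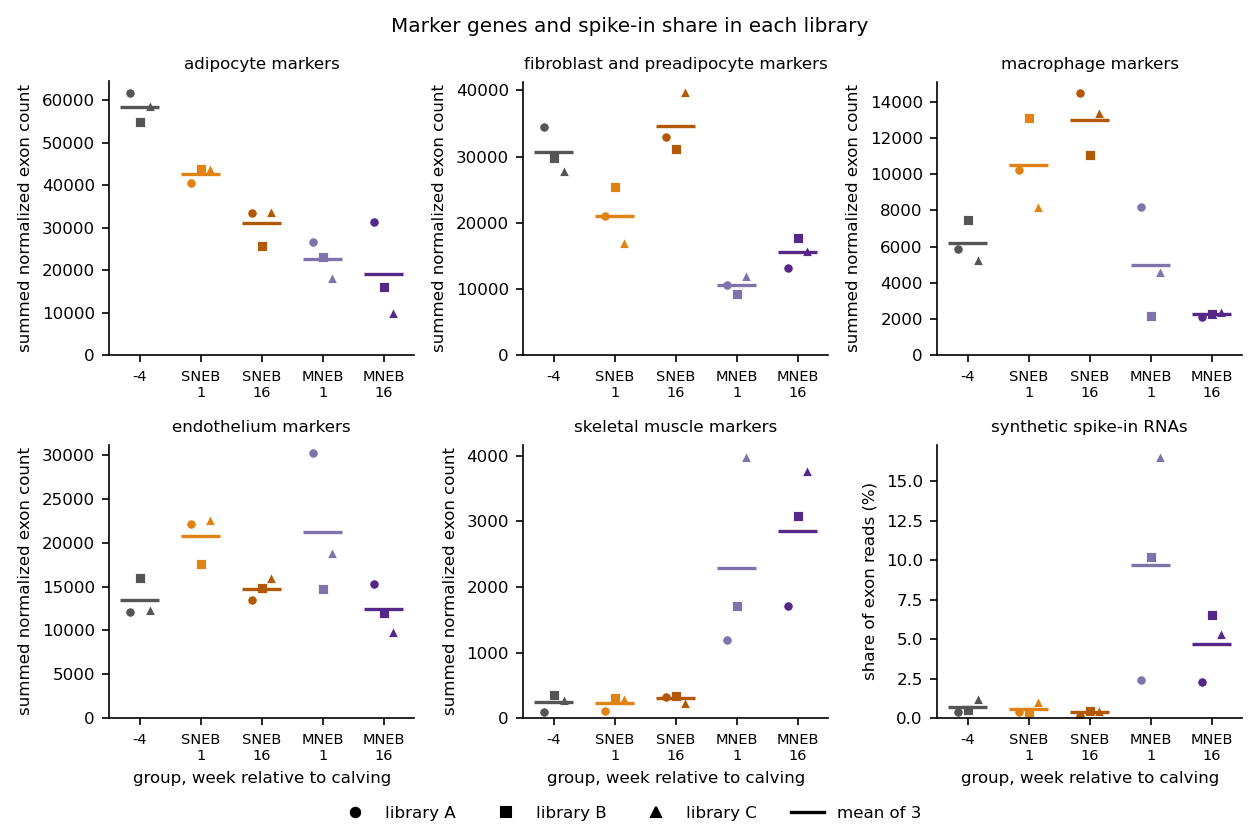
Summed normalized exon counts of marker lists for 5 cell types (linear axes) and the share of exon reads on spike-in RNAs (percent), in each library by group, with a bar at the group mean. The sum of the skeletal muscle list, most of it TNNT3 in MNEB, was 1186 or more in each MNEB library and 359 or less in the others, and the spike-in share 2.29% or more in MNEB and 1.19% or less elsewhere.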

How the data were processed

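Total RNA of 15 biopsies was depleted of ribosomal RNA and sequenced with stranded libraries by the authors, who demultiplexed with bcl2fastq 2.15.0, trimmed with cutadapt 1.3, aligned with TopHat2, counted reads with HTSeq on exons and on the entire gene, and ran DESeq2 per comparison. The 6 deposited tables give, per gene, the mean normalized count over the 6 libraries of a comparison. Their columns of fold changes, standard errors, test statistics and p-values are the authors' own comparisons and were not used, and 0 columns belonged to other samples.

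Each mean is a sum of whole reads over size factors, so the reads of the 15 libraries were solved for from the 6 means, gene by gene (Python 3.11.15, numpy 2.4.6). The solution was checked on simulated data. Of 13896 genes, 13834 had 1 solution in both analyses and 62 were left out. As a check, entire gene reads were at least the exon reads in 98.2% of values. The counts per library are thus recovered values.

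Fits used limma 3.58.1 (voom, R 4.3.3) on the 6 libraries of each comparison, genes with a mean normalized count of at least 10, two-sided tests and Benjamini-Hochberg adjustment over all genes tested. The filter's mean used the size factors of each comparison's own 6 libraries, whereas printed counts use 1 scale for all 15 libraries. A gene such as APLN could thus be tested with printed means under 10, or left out with a higher printed mean. The test of the diet difference used 12 libraries. The main design had assumed deposited counts. All members are named. Of other lists, called genes are named, up to 3 with values, and for LEP the 3 genes most correlated. Members and lists were chosen with earlier results of these data known. Alternatives were other scalings, no filter, log2 counts with pseudocounts of 1 and 10 (limma-trend), 1 fit of all 15 libraries, other thresholds and leaving out each library. Of the list of receptors and partners, 1 gene is not reported here.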

Additional observations from a re-analysis of the deposited data

Results flagged for a closer look

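The share of reads on spike-in RNAs was at least 2.42% in the MNEB libraries at 1 wkpp and at least 2.29% in those at 16 wkpp. Both lowest values lie above the highest share at -4 wkpp, 1.19%, which is what set them apart, in a measurement that the comparisons of the members did not use.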

How the results depend on the processing

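Of 118 counts of called members under the alternatives, 99 stayed within 1.5 times the reported count. Many of these were counts of 0. From 1 to 16 wkpp in SNEB and in MNEB, and in the test of the diet difference, 0 of all genes were called. The same held there with 1 fit of all 15 libraries and with any 1 library left out, so such counts had little room to move. Between -4 wkpp and MNEB at 1 wkpp the count of 1 became 2 with exons alone, 2 at an adjusted p under 0.05 and 2 (LEP and RBP4) with 1 fit of all 15 libraries, and 0 with no filter on low counts, 0 with limma-trend at either pseudocount, 0 with 1 fit of 11 libraries (added after seeing the data, without MNEB libraries B and C, so with 1 MNEB library per week assumed to vary like the other groups) and 0 to 0 when any 1 library was left out. Between diets at 1 wkpp the count of 0 became 1 with exons alone (LEP) and was 0 to 1 when 1 library was left out, with CFD called without MNEB library A. Between diets at 16 wkpp the count of 0 became 1 with exons alone (CFD), 2 (APLN and CFD) at an adjusted p under 0.05, and 1 (CFD) with limma-trend at either pseudocount. Over all genes, 183 were called between -4 wkpp and MNEB at 1 wkpp in the main fit. The count was 1049 with 1 fit of all 15 libraries and 73 with no filter. It was 249 and 250 with limma-trend, and 1 to 199 with 1 library left out. With exons alone 16.5% of all genes passed, and 10.2% at an adjusted p under 0.05. Between diets at 16 wkpp 366 were called, and 456 and 452 with limma-trend. At 1 wkpp 0 were called, and 456 without MNEB library A. The cause of the moves in the members' counts was not tested. Of 700 log2 fold changes of single members, 686 stayed on their side of the threshold, 32 of them uncalled and of the other sign, 10 lost and 4 gained a call, and 0 called ones reversed. Scaling by total reads shifted the median of all genes by -0.13 on exons for -4 wkpp over MNEB at 1 wkpp, where the log2 fold change of LEP was 3.18 to 4.45 over all alternatives. Depth limits LEPR, APLN and RETN in every group and LEP in MNEB and at 16 wkpp. No paired analysis was possible because the recovered libraries could not be tied to the numbered samples of the labels.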
